A study of Mus musculus with 27 samples.

Results

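The expression of 10 genes that restrain or gate the cell cycle was followed in mouse muscle after injury. The genes were Cdkn1a, Cdkn1b, Cdkn1c, Cdkn2a, Cdkn2b, Cdkn2c, Rb1, Gadd45a, Ccnd1 and Ccng1. They were taken by gene name from the deposited expression tables, and each of the 10 names matched a single row among 55852 entries in the table of injured muscle and among 55677 in the table with control muscle. Muscle of male C57BL/6J mice was damaged with cardiotoxin (CTX), a venom peptide that kills myofibers and so starts their regeneration, and was profiled by RNA-seq. WT and Gsdme KO mice each gave 3 libraries at 1 day (D1), 4 days (D4), 7 days (D7) and 14 days (D14), described by the submitters as biological triplicates. A further 3 libraries came from WT muscle labelled control, which the study describes as the uninjured contralateral muscle, and no uninjured KO muscle was analysed here. Gsdme encodes the pore-forming protein gasdermin E, the KO is global and not restricted to a cell type, and the sample titles call it KO whereas their genotype label reads knockdown. The ages of the mice were not given in the sources used here, and the study names the gastrocnemius whereas the deposited description names the thigh as the injected site. Values were deposited as TPM (reads per gene length, scaled to the same total in each library), so that levels can be set side by side between genes while the read depth of each library is unknown.

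Cells pass from G1 into DNA synthesis when cyclin D with CDK4 or CDK6, and then cyclin E with CDK2, phosphorylate the retinoblastoma protein Rb and release E2F transcription factors. The Cip/Kip inhibitors p21 (Cdkn1a), p27 (Cdkn1b) and p57 (Cdkn1c) bind cyclin-CDK complexes broadly, whereas the INK4 inhibitors p16 (Cdkn2a), p15 (Cdkn2b) and p18 (Cdkn2c) bind CDK4 and CDK6. In regenerating muscle, activated satellite cells proliferate as myoblasts, leave the cycle and fuse, and p21, p57 and Rb are known for their part in that withdrawal. Cdkn1a, Gadd45a and Ccng1 are also textbook targets of p53.

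The promoter sequence of these p53 targets is shown because their time courses were unlike one another. RefSeq promoter windows (GRCm38.p6, 250 bases before to 50 bases after a start) were on hand for 7 of the 10 genes, not for Cdkn1c, Rb1 and Ccnd1, and were searched on both strands for the p53 half-site consensus, a degenerate motif of 10 bases. A match was found in windows of 3 genes, Cdkn1a, Gadd45a and Ccng1, and in none of the windows of the other 4. Counted by window, 3 of the 10 windows held a match, while 8.36% of 32851 windows of all genes held one. Each line below gives 100 bases upstream of the start on the gene's strand, 5′ to 3′, and capitals mark the match. The Cdkn1a stretch lies at chr17:29090879-29090978 (plus strand) with matches beginning 73 and 51 bases before the start, that of Gadd45a at chr6:67037408-67037507 (minus strand) with a match beginning 40 bases before it, and that of Ccng1 at chr11:40755387-40755486 (minus strand) with a match beginning 185 bases before it. A second Cdkn1a window, at the start of another transcript, held none. Starts are those of the RefSeq windows. By the gene coordinates given below, which come from GENCODE, the Gadd45a match and the last bases of the Cdkn1a stretch lie inside the gene. These matches describe the letters and do not show binding.
Cdkn1a: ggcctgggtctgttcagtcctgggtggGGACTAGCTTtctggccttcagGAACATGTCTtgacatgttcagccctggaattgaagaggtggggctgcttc
Gadd45a: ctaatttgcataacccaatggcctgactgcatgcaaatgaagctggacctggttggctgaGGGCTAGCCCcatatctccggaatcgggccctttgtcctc
Ccng1: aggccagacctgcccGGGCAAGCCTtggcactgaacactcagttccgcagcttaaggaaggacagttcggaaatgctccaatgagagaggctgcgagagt

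Before the genes are described, features of the libraries are given, since several results rest on them. KO D4 replicate 2 stood apart: it had 12961 genes of at least 1 TPM against 14380 and 13960 in the other KO D4 libraries. Its summed satellite cell and myoblast markers, which include the myosin genes Myh3 and Myh8, were at 48.8 TPM against 893 and 969. The main results with KO D4 are therefore also given without this library. KO D7 replicate 2 was low as well, at 12849 genes of at least 1 TPM against 13855 and 13816 in the other KO D7 libraries. Its macrophage markers summed to 272 TPM against 620 and 535, and its mature myofiber markers to 136746 TPM against 88015 and 84623. Results with KO D7 include it unless leaving out a library is stated. The study describes a first sequencing batch of injured and contralateral muscle at D1 and a second of WT and KO muscle on the 4 days. The same WT D1 libraries stand in both tables, quantified separately, and to which batch they belong is not given in the sources used here. Batch therefore cannot be told apart from injury, from genotype at D1 or from the WT step from D1 to D4. The genotype difference averaged over days and the test of its change between days also include D1. As a label check, Gsdme was lower in each KO library than in each WT library on D1 (1.28 to 2.17 against 2.76 to 4.85 TPM), D4 (1.00 to 1.64 against 2.63 to 3.02 TPM) and D7 (0.95 to 1.37 against 1.80 to 2.51 TPM), whereas on D14 the ranges overlapped (1.27 to 1.96 against 1.46 to 2.26 TPM). The reads still assigned to Gsdme in KO muscle cannot be placed along the gene from these values. The 24 injured and 3 control libraries were bulk tissue, in which fewer cells of a type and less RNA per cell cannot be told apart.

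Differences below are on the log2(TPM + 1) scale with their SE, from limma's moderated test, and a gene is described as called, risen or fallen when the p adjusted over all genes of the comparison (Benjamini-Hochberg) was under 0.05. In uninjured muscle the most abundant of the 10 was Ccng1 at 115 ± 20.5 TPM (SD, n = 3), followed by Cdkn1c, Cdkn1a, Gadd45a and Cdkn1b, and the least abundant was Cdkn2a at 0.24 ± 0.118 TPM. Among the 8 injured groups, 7 of the 10 genes (the 6 CDK inhibitors and Rb1) had their highest mean in WT D4. The share of all genes with their highest mean there was not counted. The median gene differed by 0.17 from WT D1 to D4 and by -0.24 from WT D4 to D7. With the rescaling described below, Cdkn1b was not highest there (0.047 from WT D4 to D7 and 0.19 from D7 to D14). Of the 7, all but Cdkn1c had their highest single value in WT D4 replicate 1. Gadd45a was highest in KO D1, Ccnd1 in WT D1 and Ccng1 in KO D14.

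**Figure D1:**
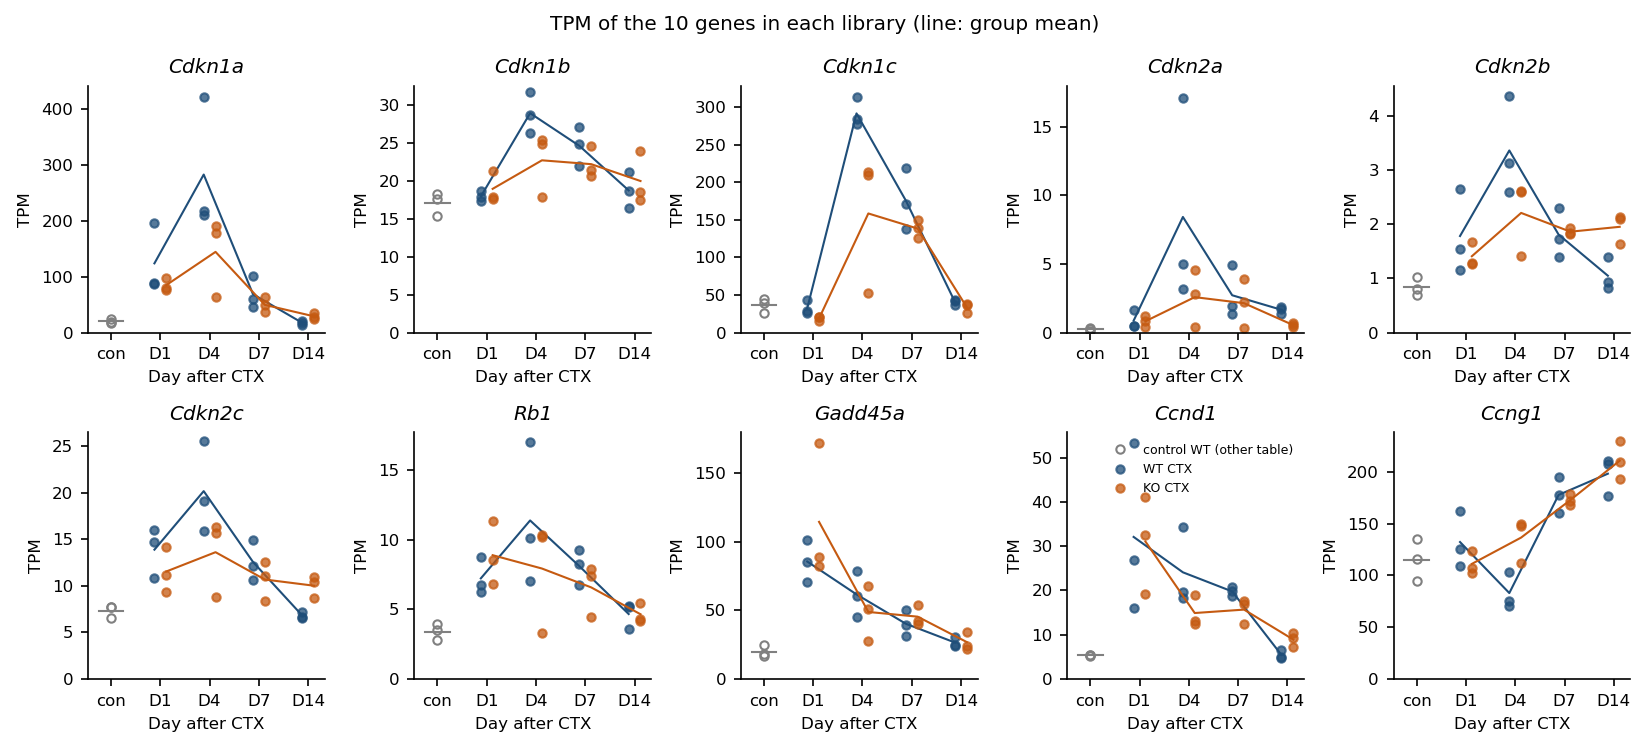
TPM (y axis, linear, from 0) of each of the 10 genes in every library, with grey open points for the 3 control libraries of the other table, blue for WT and orange for KO muscle at each day after CTX (x axis), and lines through the group means. The mean TPM of the 6 CDK inhibitors and Rb1 is highest in WT D4 among the injured groups, where that of Ccng1 is lowest.

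Gene coordinates are in build GRCm38 (mm10). Cdkn1a (ENSMUSG00000023067, chr17:29090976-29100727) encodes p21 and was the one Cip/Kip gene called higher on D1. Control libraries were at 17.0, 19.4 and 24.2 TPM, and WT D1 libraries at 89.2, 195 and 86.8 TPM in the same table. All WT D1 libraries were above all controls, and Cdkn1a rose by 2.47 ± 0.31 on the log2 scale (6.13-fold in mean TPM, adjusted p = 0.00144, limma). WT D4 libraries were at 420, 217 and 210 TPM, again all above WT D1, and Cdkn1a rose further (1.21 ± 0.40, adjusted p = 0.0361). Replicate 1 of WT D4 stood above the others, and without it the second rise was 0.89 and no longer called (adjusted p = 0.172). It was also not called without WT D1 replicate 1 (adjusted p = 0.131) or replicate 3 (adjusted p = 0.151). Cdkn1a then fell to 100, 59.7 and 45.7 TPM on D7 (-2.02 ± 0.40, adjusted p = 0.00692) and to 17.2, 21.2 and 13.8 TPM on D14 (-1.86 ± 0.40, adjusted p = 0.00665). The D14 range overlaps that of the controls, which stand in the other table and were not tested against it. Without WT D4 replicate 1 the fall to D7 had an adjusted p of 0.0529, without WT D7 replicate 3 of 0.0502, and the fall to D14 without WT D14 replicate 3 of 0.0517.

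In KO muscle Cdkn1a was at 97.8, 76.5 and 80.1 TPM on D1 and at 191, 63.8 and 178 TPM on D4, where the low value is replicate 2. The step from D1 to D4 was 0.61 ± 0.40 (adjusted p = 0.269) and became a called rise of 1.12 without that library (adjusted p = 0.0478). From D4 to D7, where the libraries were at 62.7, 37.3 and 48.7 TPM, the difference was -1.40 ± 0.40 (adjusted p = 0.25), and without replicate 2 of KO D4 a called fall of -1.90 (adjusted p = 0.00522). KO D14 libraries were at 35.6, 24.4 and 26.96 TPM, below every KO D7 library, with a difference of -0.74 ± 0.40 that did not pass the test (adjusted p = 0.309).

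Cdkn1c (ENSMUSG00000037664, chr7:143458339-143461050) encodes p57, an imprinted gene's product known from differentiating myoblasts, and its course was unlike that of Cdkn1a. On D1 it had not risen: controls were at 39.5, 45.0 and 25.9 TPM and WT D1 libraries at 23.9, 26.8 and 40.6 TPM (-0.27 ± 0.27, adjusted p = 0.40). On D4 the WT libraries were at 284, 313 and 278 TPM, 9.02-fold above the WT D1 mean of 32.3 TPM, which was the widest step of any of the 10 genes on the log2(TPM + 1) scale (3.17 ± 0.36, adjusted p = 2.97e-05), while in mean TPM the step of the low gene Cdkn2a was 9.69-fold. WT D7 libraries were at 219, 170 and 137 TPM, below each WT D4 library, with a difference of -0.75 ± 0.36 that did not pass the test (adjusted p = 0.151). Cdkn1c then fell to 41.4, 42.9 and 37.1 TPM on D14 (-2.07 ± 0.36, adjusted p = 0.00334). From WT D4 to D7 the ratio of the means was thus 0.243 for Cdkn1a and 0.603 for Cdkn1c.

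In KO muscle Cdkn1c was at 20.9, 14.9 and 20.7 TPM on D1 and at 214, 52.3 and 209 TPM on D4, a rise of 2.77 ± 0.36 (adjusted p = 0.000131) that was 3.44 without replicate 2 (adjusted p = 4.81e-08). KO D7 libraries were at 150, 126 and 139 TPM, and the difference from D4 was 0.05 ± 0.36 with replicate 2 and -0.61 without it, neither past the test (adjusted p = 0.97 and 0.0825). On D14 Cdkn1c fell to 25.9, 38.4 and 36.2 TPM (-2.03 ± 0.36, adjusted p = 0.0186). That fall lost its call when KO D7 replicate 1 (adjusted p = 0.0971) or replicate 3 (adjusted p = 0.0832), or KO D14 replicate 1 (adjusted p = 0.0843) or replicate 2 (adjusted p = 0.0528), was left out, while its size stayed between -2.13 and -1.86.

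Cdkn1b (ENSMUSG00000003031, chr6:134920401-134925513), which encodes p27, moved least among the Cip/Kip genes. Controls were at 15.4, 18.3 and 17.6 TPM and WT D1 libraries at 17.4, 17.9 and 18.8 TPM, a difference of 0.07 ± 0.16 (adjusted p = 0.713). WT D4 libraries were at 31.8, 28.8 and 26.4 TPM, all above WT D1, and Cdkn1b rose by 0.66 ± 0.15 (1.61-fold, adjusted p = 0.00457). No later step passed the test in WT muscle, where D7 libraries were at 27.2, 24.9 and 21.9 TPM and D14 libraries at 21.2, 18.7 and 16.5 TPM. KO libraries were between 17.5 and 25.4 TPM on all 4 days, and no step of Cdkn1b passed the test in KO muscle. p27 protein is set largely by its turnover, which RNA does not show.

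The INK4 genes were expressed at lower levels. Cdkn2a (ENSMUSG00000044303, chr4:89274471-89294653) encodes p16 and, in another reading frame, p19Arf, and the deposited value sums both. It was at 0.34, 0.27 and 0.11 TPM in control muscle and at 0.45, 1.66 and 0.50 TPM in WT D1, and was not tested there because too few libraries reached 1 TPM. WT D4 libraries were at 17.1, 4.99 and 3.17 TPM, each above every WT D1 library, and Cdkn2a rose by 2.10 ± 0.54 (adjusted p = 0.01). Replicate 1 alone held the highest value of the series, and without it the rise was 1.48 with an adjusted p of 0.0695. WT D7 libraries were at 4.91, 1.34 and 1.91 TPM and WT D14 libraries at 1.39, 1.74 and 1.85 TPM, all above the control values of the other table. In KO muscle the D4 libraries were at 2.80, 0.40 and 4.55 TPM and the D14 libraries at 0.70, 0.52 and 0.41 TPM, and no step passed the test.

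Cdkn2b (ENSMUSG00000073802, chr4:89306299-89311039), the neighbour of Cdkn2a that encodes p15, stayed between 0.82 and 4.37 TPM in all injured libraries. WT D1 libraries were at 1.54, 1.16 and 2.65 TPM and WT D4 libraries at 4.37, 3.13 and 2.59 TPM. These ranges overlap, and the rise of 0.66 ± 0.21 (adjusted p = 0.0326) was not called when WT D1 replicate 1 (adjusted p = 0.0975) or 2 (adjusted p = 0.119), or WT D4 replicate 1 (adjusted p = 0.150) or 2 (adjusted p = 0.0634), was left out. Cdkn2c (ENSMUSG00000028551, chr4:109660876-109667189) encodes p18. Its controls were at 6.54, 7.75 and 7.75 TPM and its WT D1 libraries at 10.9, 16.0 and 14.7 TPM, a rise of 0.82 ± 0.21 (adjusted p = 0.0101). It reached 25.5, 19.2 and 15.8 TPM in WT D4 without passing the test, and from WT D7 (14.9, 10.7 and 12.1 TPM) to WT D14 (7.19, 6.69 and 6.56 TPM) it fell by 0.78 on the log2 scale (SE 0.23, adjusted p = 0.0179). That fall was not called without WT D7 replicate 1 (adjusted p = 0.0931) or WT D14 replicate 3 (adjusted p = 0.0793). No step of Cdkn2b or Cdkn2c passed the test in KO muscle, where KO D14 libraries were at 2.13, 2.09 and 1.64 TPM for Cdkn2b and 8.68, 11 and 10.4 TPM for Cdkn2c.

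Summed over the 6 inhibitor genes, TPM rose from 82.5 ± 8.14 in control muscle to 191 ± 61.3 in WT D1 and 635 ± 131 in WT D4, and was 286 ± 75.7 in WT D7 and 86.1 ± 8.46 in WT D14 (SD, n = 3 each, a description without a test). In KO muscle the sums were 136 ± 16.8, 344 ± 173, 225 ± 29.6 and 95.1 ± 5.03 TPM on the 4 days. The composition shifted from a sum led by Cdkn1a to one led by Cdkn1c: Cdkn1a held 62.9% ± 11.5 in WT D1 and 23.4% ± 3.40 in WT D7, while Cdkn1c held 18.1% ± 7.55 and 61.7% ± 2.07. In KO muscle they were 62.2% ± 2.60 and 21.8% ± 2.79 for Cdkn1a and 13.8% ± 1.45 and 61.8% ± 2.95 for Cdkn1c. On D14 the ranges of KO and WT did not overlap, again as a description: Cdkn1a held 24.3% to 39.3% in KO and 18.0% to 22.9% in WT libraries, and Cdkn1c 28.6% to 38.5% in KO and 46.3% to 48.4% in WT libraries. KO D4 replicate 2, whose sum was 145 TPM against 452 and 435 TPM in the other KO D4 libraries, had a Cdkn1a share of 44.1% against 42.2% and 40.9%.

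**Figure D2:**
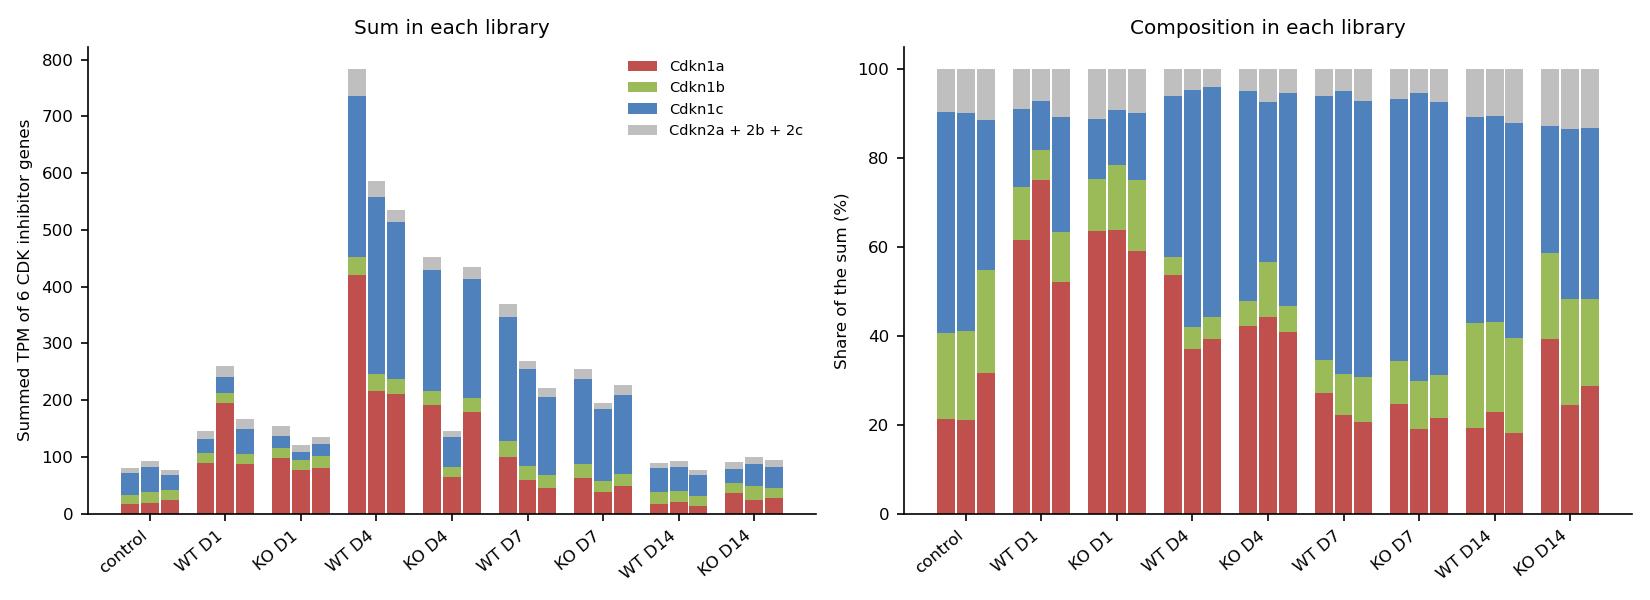
Summed TPM of the 6 CDK inhibitor genes in each library (left, bars from 0, 3 bars per group in the order of the replicates) and the share of each gene in that sum (right, percent). The sum is highest in WT D4, from 536 to 783 TPM, and the leading gene changes from Cdkn1a on D1 to Cdkn1c on D7 in both genotypes.

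Rb1 (ENSMUSG00000022105, chr14:73183673-73325822), which encodes the pocket protein that the CDKs inactivate, was at 3.94, 2.78 and 3.50 TPM in control muscle and at 6.61, 8.34 and 6.01 TPM in WT D1. All WT D1 libraries were above the controls and Rb1 rose by 0.86 ± 0.22 (2.05-fold, adjusted p = 0.0102). It spread most on D4, with WT libraries at 17.0, 10.2 and 7.00 TPM and KO libraries at 10.2, 3.32 and 10.3 TPM, and no later step passed the test in either genotype. WT D14 libraries were at 5.24, 5.14 and 3.61 TPM and KO D14 libraries at 4.14, 5.47 and 4.34 TPM.

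Ccnd1 (ENSMUSG00000070348, chr7:144929931-144939925) encodes cyclin D1, the CDK4 and CDK6 partner that the INK4 proteins displace and that mitogens induce. Controls were at 5.24, 5.52 and 5.44 TPM and WT D1 libraries at 26.99, 53.7 and 16.1 TPM, a rise of 2.22 ± 0.37 (5.98-fold, adjusted p = 0.0027). WT libraries were at 34.3, 19.7 and 18.3 TPM on D4 and at 20.8, 18.6 and 19.9 TPM on D7, steps that did not pass the test. On D14 Ccnd1 fell to 5, 6.56 and 4.77 TPM (-1.70 ± 0.33, adjusted p = 0.00528). KO muscle was at 32.6, 19.3 and 41.2 TPM on D1 and at 19.1, 13.2 and 12.5 TPM on D4, a fall of -0.97 ± 0.33 (adjusted p = 0.0473). That call was lost without KO D1 replicate 1 (adjusted p = 0.127) or 3 (adjusted p = 0.215) or KO D4 replicate 2 (adjusted p = 0.123) or 3 (adjusted p = 0.123). KO D7 libraries were at 17.7, 12.4 and 16.9 TPM and KO D14 libraries at 7.13, 9.33 and 10.3 TPM (-0.75 ± 0.33, adjusted p = 0.234).

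The p53 targets outside the inhibitor families differed from each other. Gadd45a (ENSMUSG00000036390, chr6:67035096-67037457), a stress-induced gene whose protein binds p21 and PCNA, was at 18.2, 24.4 and 16.8 TPM in control muscle and at 70.5, 102 and 85.6 TPM in WT D1, a rise of 2.06 ± 0.21 (4.34-fold, adjusted p = 0.000988). Unlike Cdkn1a it had its highest level on D1: WT libraries were at 78.7, 60.6 and 45.4 TPM on D4, at 50.4, 39.0 and 31.4 TPM on D7 and at 25.03, 30.5 and 24.1 TPM on D14, and no single step passed the test. KO libraries were at 82.4, 89.0 and 172 TPM on D1 and at 51.3, 27.8 and 67.3 TPM on D4, a called fall of -1.22 ± 0.31 (adjusted p = 0.011). The high value is KO D1 replicate 3, and the call was lost without it (-0.89, adjusted p = 0.0835) and without KO D4 replicate 2 (-0.87, adjusted p = 0.0564).

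Ccng1 (ENSMUSG00000020326, chr11:40748552-40755311), which encodes cyclin G1, a cyclin that recruits a phosphatase to Mdm2, moved opposite to Cdkn1a in WT muscle from D1 to D4 and from D4 to D7. It was at 94.4, 136 and 115 TPM in control muscle and at 126, 109 and 162 TPM in WT D1, with no called difference (0.19 ± 0.21, adjusted p = 0.426). On D4 it fell to 75.3, 103 and 70.6 TPM, all below WT D1 (-0.67 ± 0.16, adjusted p = 0.00692), a call lost without WT D1 replicate 3 (-0.51, adjusted p = 0.0507). It then rose to 160, 178 and 195 TPM on D7 (1.10 ± 0.16, adjusted p = 0.00174), when Cdkn1a fell. WT D14 libraries were at 177, 207 and 210 TPM, above all 3 controls of the other table. In KO muscle the group means went from 111 ± 11.03 TPM on D1 to 136 ± 21.2 on D4, 173 ± 5.35 on D7 and 211 ± 18.5 on D14 without the D4 dip, and no single step passed the test. Over the 24 injured libraries, which share days and batches, Pearson's r of log2(TPM + 1) between Ccng1 and Cdkn1a was -0.85, given as a description.

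Counted over the genes, 5 of the 9 tested were called higher in WT D1 than in control muscle and none lower, where 61.1% of all 13041 genes tested were called, 55.4% higher and 5.64% lower, so the share of the list is near the background. In 6 of the 9 every WT D1 library was above every control library and in none below, as in 64.2% and 7.03% of all genes. The median difference of all genes was 0.66 in that comparison, and relative to it Cdkn1a stood at 1.80, Ccnd1 at 1.55 and Gadd45a at 1.40, whereas Rb1 (0.19) and Cdkn2c (0.16) were close to the median gene. With the TPM rescaled by median-of-ratios factors, which brings the median of all genes to about 0, the calls over all genes went from 7229 higher and 736 lower to 2771 higher and 2763 lower. Cdkn1a, Ccnd1 and Gadd45a were still called higher, Rb1 (0.20, adjusted p = 0.276) and Cdkn2c (0.10, adjusted p = 0.673) were not, and Cdkn1b (-0.68, adjusted p = 0.0209) and Cdkn1c (-1.03, adjusted p = 0.0422) were called lower.

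From WT D1 to D4, 5 of the 10 genes rose and 1 fell, where 19.8% of all 15718 genes tested were called, 14.6% higher and 5.27% lower. In 4 of the 10 every D4 library was above every D1 library and in 1 below, as in 22.1% and 7.39% of all genes. Rescaling took the calls over all genes from 2292 higher and 828 lower to 1821 and 2094. The rises of Cdkn1c, Cdkn2a, Cdkn1a and Cdkn1b and the fall of Ccng1 were called on both scales, that of Cdkn2b only without rescaling (0.41 with it, adjusted p = 0.124), and a fall of Gadd45a only with it (-0.77, adjusted p = 0.0291). From WT D4 to D7, Ccng1 rose and Cdkn1a fell on both scales, against 12.3% of genes called, 3.04% higher and 9.31% lower. In 1 of the 10 every D7 library was above every D4 library and in 4 below, as in 9.52% and 33.2% of all genes. Over all genes those calls were 478 higher and 1463 lower, and 928 and 918 with rescaling. From WT D7 to D14, 4 genes fell (Cdkn1c, Cdkn1a, Ccnd1 and Cdkn2c), where 31.8% of genes were called, 0.923% higher and 30.9% lower, and with rescaling Cdkn2c was not called (-0.25, adjusted p = 0.221). In 7 of the 10 every D14 library was below every D7 library and in none above, as in 58.9% and 4.58% of all genes. That step was the most lopsided over all genes, at 145 called higher and 4855 lower, and 804 and 1353 with rescaling.

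In KO muscle, 3 of the 10 genes were called from D1 to D4 (Cdkn1c higher, Gadd45a and Ccnd1 lower) where 19.4% of genes were called, 7.18% higher and 12.2% lower, and with rescaling Cdkn1a (0.80, adjusted p = 0.0443) and Cdkn1b (0.41, adjusted p = 0.0197) were called higher too. Over all genes those calls were 1128 higher and 1921 lower, and 1774 and 2360 with rescaling. In 1 of the 10 every KO D4 library was above every KO D1 library and in 2 below, as in 10.9% and 19.8% of all genes. From KO D4 to D7 none of the 10 and 0% of all genes were called by limma, 2 of the 10 (Ccng1 and Cdkn1a) having an unadjusted p under 0.05, as had 9.89% of all genes. In 1 of the 10 every KO D7 library was above every KO D4 library and in 1 below, as in 2.43% and 6.45% of all genes. Without KO D4 replicate 2, 1375 genes were called in that step, Cdkn1a among them. From KO D7 to D14, Cdkn1c was called lower where 0.56% of genes were called, 0.0827% higher and 0.477% lower. Those calls were 13 higher and 75 lower, and 127 and 305 with rescaling. In 1 of the 10 every KO D14 library was above every KO D7 library and in 4 below, as in 5.48% and 25.7% of all genes.

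**Figure D3:**
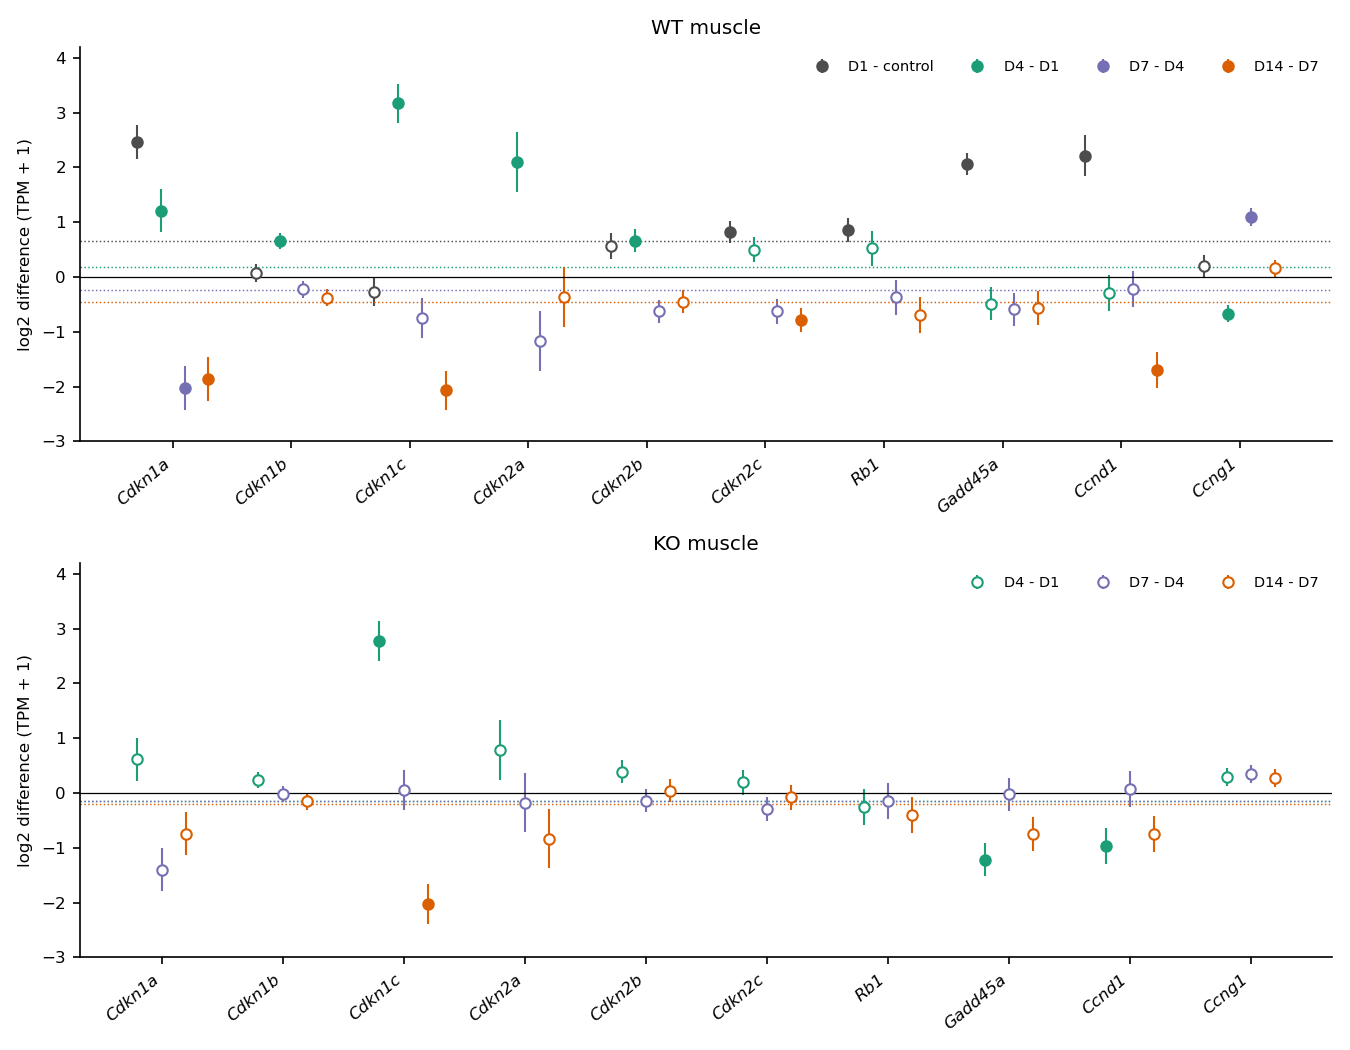
Difference on the log2(TPM + 1) scale for each gene (x axis) and each step in WT (top) and KO muscle (bottom), with bars of 1 SE from limma. Filled points were called, and dotted lines mark the median of all genes in that step. Cdkn1c has the widest step in both genotypes, 3.17 in WT and 2.77 in KO muscle from D1 to D4.

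No gene of the 10 was called between KO and WT muscle on any day, in the average over days or in the F test of whether the difference changed between days. Over all genes, 0.00636% were called on D1, 0% on D4, D7 and D14, 0.00636% in the average and 0% in the F test. Gsdme, the gene knocked out, was not called on any day or in these 2 tests either. Its adjusted p was 0.628 on D1, 0.212 on D4, 0.776 on D7, 0.0664 in the average and 0.527 in the F test (limma). At an unadjusted p under 0.05 there were none of the 10 on D1 or D7, 7 on D4, 2 on D14, 2 in the average and 4 in the F test. The corresponding shares of all genes were 5.38%, 3.06%, 22.7%, 2.06%, 3.54% and 7.65%. Without KO D4 replicate 2 the 7 on D4 became 1, which was Ccng1. The share of all genes without that library is not given here, so this count has no background beside it.

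On D4, Cdkn1a was lower in each KO D4 library than in each WT D4 library (mean 144 against 282 TPM, -1.04 ± 0.40, adjusted p = 0.212, limma). The same held for Cdkn1c (159 against 292 TPM, -1.12 ± 0.36, adjusted p = 0.212) and Cdkn1b (22.8 against 29.0 TPM, -0.35 ± 0.15, adjusted p = 0.212). Ccng1 was higher in each KO D4 library (136 against 83.0 TPM, 0.72 ± 0.16, adjusted p = 0.201). Of all genes, 11.2% were lower and 2.77% higher in every KO D4 library, and the median gene was at -0.28. With rescaling the differences were -0.69 for Cdkn1a, -0.78 for Cdkn1c, -0.011 for Cdkn1b and 1.06 for Ccng1. Cdkn2a was then at -1.05, Ccnd1 at -0.29, Cdkn2c at -0.22, Rb1 at -0.21, Cdkn2b at -0.19 and Gadd45a at -0.039. None of these was called. Without rescaling and without KO D4 replicate 2 the differences were -0.54 for Cdkn1a, -0.46 for Cdkn1c, -0.19 for Cdkn1b and 0.65 for Ccng1. The difference of Ccng1 thus rested less on that library. The unadjusted p-values without it were 0.162, 0.0509, 0.21 and 0.00196, and the adjusted ones 0.905 for the first 3 and 0.896 for Ccng1. Cdkn2a was at 2.58 against 8.43 TPM (-1.31 ± 0.54, adjusted p = 0.212), with overlapping libraries, and at -0.74 without KO D4 replicate 2. The remaining genes also came closer to 0 without it, Cdkn2c going from -0.56 to -0.29, Cdkn2b from -0.45 to -0.25, Rb1 from -0.52 to -0.06, Gadd45a from -0.38 to -0.03 and Ccnd1 from -0.63 to -0.55.

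On D14 the order was turned for some of them. Cdkn1a (29.0 against 17.4 TPM, 0.71 ± 0.40), Ccnd1 (8.92 against 5.44 TPM, 0.62 ± 0.33), Cdkn2b (1.95 against 1.05 TPM, 0.53 ± 0.21) and Cdkn2c (10.01 against 6.81 TPM, 0.49 ± 0.23) were higher in each KO than in each WT library, and Cdkn2a was lower (0.543 against 1.66 TPM, -0.79 ± 0.54). Of all genes, 7.37% were higher and 1.04% lower in every KO D14 library, and all of these adjusted p-values were 1. On D1, Cdkn1c was the single gene without overlap, lower in KO (18.8 against 32.3 TPM, -0.73 ± 0.36, adjusted p = 0.873), where 3.38% of genes were lower and 3.33% higher in every KO library. On D7, Ccnd1 was lower in every KO library (15.7 against 19.8 TPM, -0.33 ± 0.33, adjusted p = 0.776), where 14.6% of genes were lower and 1.85% higher in every KO library. The mean of Cdkn1c was lower in KO muscle on all 4 days, with an average difference of -0.61 ± 0.18 (unadjusted p = 0.00297, adjusted p = 0.861) and of -0.45 without KO D4 replicate 2 (adjusted p = 0.461).

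**Figure D4:**
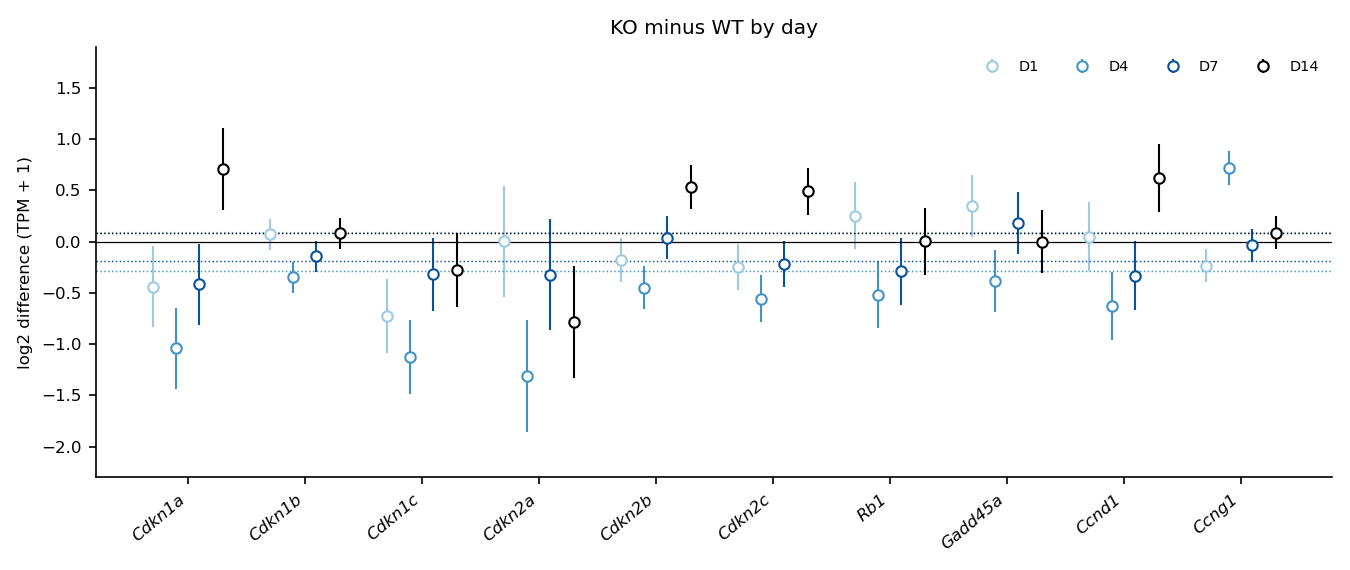
KO minus WT difference on the log2(TPM + 1) scale for each gene on D1, D4, D7 and D14 (points in 4 colors), with bars of 1 SE from limma and dotted lines at the median of all genes on that day. All points are open because none was called. On D4, 9 of the 10 points are below 0 and Ccng1 is above it.

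Markers of the cells in the tissue moved over the same days, and their part in these results was not tested. Of the 8 satellite cell and myoblast markers, all 8 averaged 1 TPM or more in WT D4, 4 in WT D1 and 3 in control muscle, and their summed level was from 26.3 to 30.5 TPM in control muscle, 102 to 162 in WT D1, 1189 to 1827 in WT D4, 185 to 511 in WT D7 and 16.8 to 34.0 in WT D14. The sum includes the myosin genes Myh3 and Myh8, at 463 and 282 TPM on average in WT D4, where Pax7 was at 5.93 TPM. It is therefore not a measure of satellite cells alone. Cdkn1c, like the sum, was highest in WT D4. On D1, when the marker sums were above those of the controls, its difference from control was -0.27 and not called, and -1.03 and called lower with rescaling (adjusted p = 0.0422, limma). In KO D4 the markers were at 893, 48.8 and 969 TPM, and the library low for these markers was also low for Cdkn1c. Without that library each KO D4 value of the marker sum was still below each WT D4 value, as was Cdkn1c.

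Of the 8 macrophage markers, all 8 reached 1 TPM in every injured group, with sums from 426 to 1429 TPM in WT D1, 1270 to 2797 in WT D4, 609 to 782 in WT D7 and 91.5 to 264 in WT D14. WT D4 replicate 1, which had the highest Cdkn1a, Cdkn1b, Cdkn2a, Cdkn2b, Cdkn2c and Rb1 of the series, also had the highest macrophage sum (2797 TPM) and, at 28058 TPM, the lowest sum of the 8 mature myofiber markers. Among the injured libraries this library also had the most genes of at least 1 TPM (14704) and the largest rescaling factor (1.57). The myofiber sum was from 119604 to 126506 TPM in control muscle, and all 8 of these markers averaged 1 TPM or more in every group. Neutrophil markers were from 57.4 to 614 TPM in WT D1 and reached 3463 TPM in KO D1 replicate 3, the library with the highest Gadd45a. KO D4 replicate 2 also had the highest sums of Schwann cell (1678 TPM) and acinar pancreas markers (62.0 TPM) among the injured libraries. Fibro-adipogenic progenitor markers were at 1687 TPM in it against 7038 and 4741 TPM in the other KO D4 libraries. Adipocyte markers were from 307 to 1218 TPM in KO D14 and from 46.6 to 80.7 TPM in WT D14, the day on which 4 of the genes were higher in every KO library. Endothelial markers stayed between 130 and 355 TPM, and epidermal markers at or under 5.57 TPM.

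**Figure D5:**
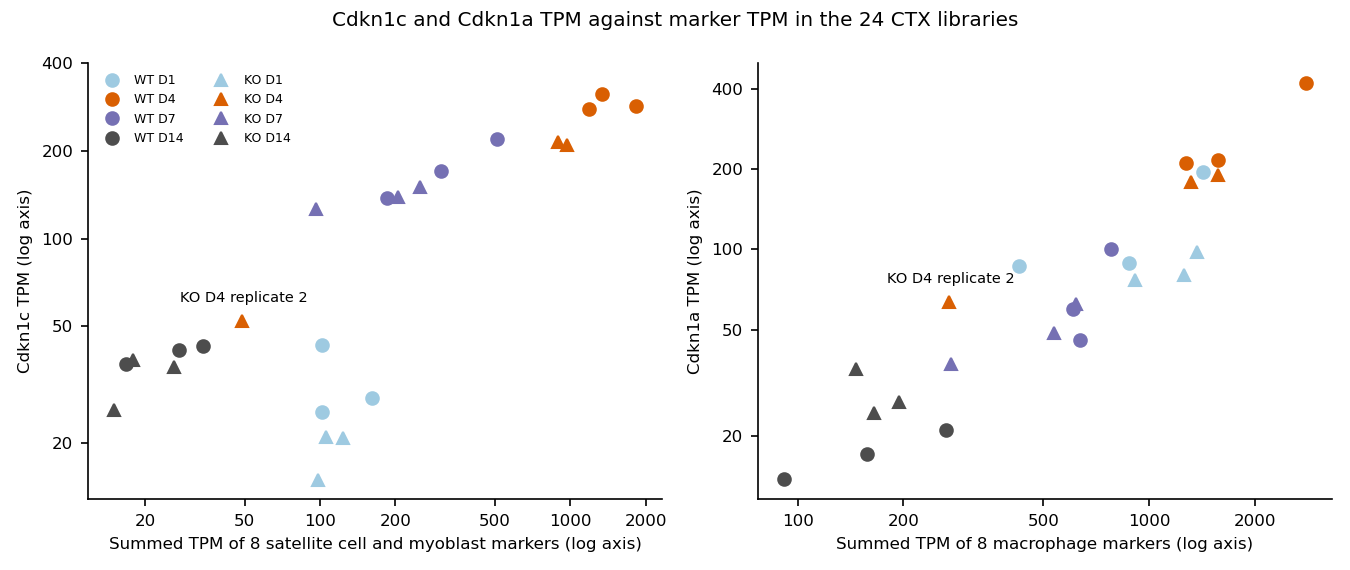
Cdkn1c against the summed TPM of 8 satellite cell and myoblast markers, Myh3 and Myh8 among them (left), and Cdkn1a against that of 8 macrophage markers (right), with log axes and 1 point per injured library (circles WT, triangles KO, colors by day). On the left the D1 libraries, with marker sums from 98.0 to 162 TPM, have Cdkn1c from 14.9 to 43.2 TPM, and KO D4 replicate 2 lies apart from its group in both panels.

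Other genes of the pathway were read from lists. The shares of all genes set beside the list counts are without rescaling. With rescaling, 2771 of 13041 genes were called higher and 2763 lower in WT D1 against control. For the later steps with list calls, the rescaled calls over all genes are given above. Of 11 cyclins and CDKs, the engines of the cycle, 11 were called higher in WT D1 than in control muscle, where 55.4% of all genes were, and 10 with rescaling, with a median difference of 1.85 against 0.66 for all genes. Cdk1, the mitotic kinase, was at 42.9 ± 31.1 against 0.553 ± 0.085 TPM (4.56 ± 0.46, adjusted p = 0.000988), and the mitotic and S-phase cyclins Ccnb1 (3.15 ± 0.50) and Ccna2 (3.05 ± 0.45) rose as well. None was called from WT D1 to D4 or from D4 to D7, and from D7 to D14, 9 of the 11 fell, where 30.9% of all genes did, and 8 with rescaling. Cdk1 went from 21.0 ± 6.53 to 0.81 ± 0.636 TPM (-3.63 ± 0.63), and Ccnb2 (-2.72 ± 0.57) and Ccna2 (-2.70 ± 0.58) went with it. With rescaling 1 rose and 1 fell in each of the 2 earlier WT steps. In KO muscle no step was called for this list, while with rescaling 3 fell from D1 to D4 and 3 from D7 to D14. None of the 11 differed between genotypes at the threshold. The median KO minus WT difference was -0.85 on D4 and -0.70 on D7 against -0.28 and -0.19 for all genes. With rescaling it was -0.50 and -0.48 against -0.0025 and 0. The KO and WT libraries overlapped in each of the 11 on D4. On D7 they were apart in 4, where 14.6% of all genes were lower and 1.85% higher in every KO library. Medians of this list without KO D4 replicate 2 are not given here.

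Of 17 other inhibitors, pocket proteins, E2F and related factors, 15 were tested in the control comparison and 10 were called higher in WT D1, where 55.4% of all genes were, and 4 higher and 2 lower with rescaling. E2f1, an activator of S-phase genes, went from 0.527 to 6.31 TPM (2.19 ± 0.29), Cdkn3, a phosphatase of CDKs, from 0.177 to 5.003 TPM (2.07 ± 0.48), and the repressor E2f4 from 21.7 to 69.8 TPM (1.63 ± 0.18). From WT D1 to D4, 4 rose, among them E2f8 (1.59 ± 0.52), E2f2 (1.11 ± 0.34) and Ccng2 (1.02 ± 0.27), and 2 fell, E2f6 (-0.76 ± 0.24) and E2f4 (-0.65 ± 0.18), against 14.6% and 5.27% of all genes, and with rescaling 4 rose and 3 fell. Ccng2, which encodes cyclin G2, thus rose at the step at which its relative Ccng1 fell. E2f4 fell again from WT D4 to D7 (-0.91 ± 0.18), the single call of the 17 in that step, where 9.31% of all genes fell. From WT D7 to D14, 5 of the 17 fell, where 30.9% of all genes did, with E2f2 (-1.49 ± 0.34), E2f1 (-1.38 ± 0.36) and the pocket protein gene Rbl1 (-1.05 ± 0.30) leading. Gadd45g, a relative of Gadd45a, rose from 65.5 ± 23.6 to 120 ± 2.13 TPM (0.92 ± 0.35, adjusted p = 0.0496), and with rescaling 3 fell and 2 rose. In KO muscle, 4 fell from D1 to D4, among them E2f4 (-1.16 ± 0.18), E2f1 (-1.04 ± 0.36) and Rbl1 (-0.88 ± 0.30), where 12.2% of all genes fell, and with rescaling 5 fell and 1 rose. In this list no other step or genotype difference was called, apart from 1 fall from KO D7 to D14 with rescaling.

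Of 20 genes for p53 and its targets, 19 were tested in the control comparison and 14 were called higher in WT D1, where 55.4% of all genes were, and 6 higher and 1 lower with rescaling. The apoptosis gene Bax (2.50 ± 0.30), the kinase gene Plk2 (2.39 ± 0.30) and the receptor gene Eda2r (2.31 ± 0.24) led. From WT D1 to D4, Sesn1 (0.98 ± 0.26) and Bbc3 (0.91 ± 0.26) rose, while Tigar (-1.71 ± 0.34), Eda2r (-1.39 ± 0.40) and Aen (-0.64 ± 0.14) fell. These 2 rises and 3 falls among 20 genes stood against 19.8% of all genes called, and with rescaling there were 2 rises and 6 falls. From WT D4 to D7, Sesn2 (-1.02 ± 0.27) and Bax (-0.95 ± 0.30) fell, 2 of 20 where 9.31% of all genes did, and 3 of the list with rescaling. From WT D7 to D14, 7 of the 20 fell, where 30.9% of all genes did, led by Eda2r (-1.37 ± 0.40), Trp53 (-1.29 ± 0.26) and Plk2 (-1.11 ± 0.32), and Tigar rose (1.07 ± 0.34). With rescaling 3 fell and 2 rose, Trp53 and Tigar among them, while Eda2r (adjusted p = 0.068) and Plk2 (adjusted p = 0.064) were not called. In KO muscle, 5 fell from D1 to D4, led by Eda2r (-1.68 ± 0.40), Bax (-1.31 ± 0.30) and Plk2 (-1.25 ± 0.32), where 12.2% of all genes fell, and with rescaling 6 fell and 1 rose. In this list none was called in a later step or between genotypes, apart from 2 falls from KO D7 to D14 with rescaling.

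Of 6 genes listed for p27 turnover, mostly of the ubiquitin ligase with Skp2 and Cks1b that marks p27 for degradation, 5 were called higher in WT D1 than in control muscle, where 55.4% of all genes were, and 2 higher and 1 lower with rescaling. Cks1b went from 3.68 to 34.6 TPM (2.82 ± 0.34), Skp2 from 0.277 to 2.94 TPM (1.52 ± 0.33) and Cul1 from 21.5 to 41.0 TPM (0.89 ± 0.17), the last of which was not called with rescaling. From WT D7 to D14, Cks1b (-1.94 ± 0.48), Skp2 (-1.20 ± 0.38) and Fbxw7 (-0.39 ± 0.14), better known as a receptor for cyclin E, fell, where 30.9% of all genes did, Fbxw7 being at 0.15 and not called with rescaling. No other step and no genotype difference was called, apart from 1 fall from KO D1 to D4 with rescaling.

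The genes whose levels ran most like those of the 10 over the 24 injured libraries were also listed, as a description in which the libraries share days. Cdkn1a ran with the ribosomal protein gene Rpl10a (Pearson's r of 0.97), Cdkn1c with Itm2a and Gnas (0.96 each), and Cdkn1b with Efna4 (0.93) and Erlec1 (0.92). The likest of Cdkn2a were Prokr2 (0.92) and Spaca1 (0.90), of Cdkn2b Tmeff1 (0.87) and Fggy (0.85), and of Cdkn2c Rchy1 and Edc3 (0.93 each). Rb1 ran with Sgpp1 (0.98) and Creg1 (0.97), Gadd45a with Psmc1 and Herpud2 (0.95 each), Ccnd1 with Nxt1 and Sema6b (0.96 each) and Ccng1 with Pkia (0.97) and Iftap (0.95). Among the 10 themselves, Cdkn1a ran most closely with Cdkn2c (0.90) and Cdkn1b with Cdkn1c (0.85), while Gadd45a and Cdkn1c were at -0.09.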

How the data were processed

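RNA-seq of mouse muscle was available as 27 libraries. Per the labels, a SMARTER mRNA kit was used on total RNA, reads were paired and the genome build was mm10. The aligner and counter are not given in the sources used here. The authors deposited TPM per gene in 2 tables, of 24 injured libraries and of 3 control with 3 WT D1 libraries, and their mean columns were not used. TPM are shares of a library, so that a gain in abundant genes lowers all others, and depth and counting error are unknown.

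The 10 genes and all lists were chosen with earlier results of these data known. Groups and replicate numbers came from sample titles. Genes with at least 1 TPM in at least 3 libraries of a table were tested as log2(TPM + 1), a scale that understates the change of low genes, with limma 3.58.1 (R 4.3.3, variance trend, group means, Benjamini-Hochberg over all genes, threshold 0.05). The injured table gave 1 fit of 8 groups. The p-values set each difference against the spread within groups, pooled over all groups of a fit and moderated across genes. Lists were described by counts of called genes, in part also with median-of-ratios scaling. Of each list, up to 3 called genes with the largest difference per direction were named, and for each of the 10 genes the 2 with the highest correlation, apart from 1 that is not reported here. The test was also run on simulated data with 200 genes changed in KO D4. It called 51% of those with a log2 difference of 1 and 87% of those with 2, up or down. A missing call therefore does not show equal levels. Alternatives were a pseudocount of 0.1, no filter, median-of-ratios scaling, the compared groups only, a replicate block and leaving out each library. Coordinates are from GENCODE on GRCm38, and shared exons or overlapping genes may have split reads, since strand use is not given in the sources used here. Same-numbered WT and KO libraries did not deviate together (Pearson's r from -0.40 to 0.39, over 0.1 in 4 of 12 pairs), so numbers were not taken as pairs. Contralateral control muscle could come from the same mice as the WT D1 libraries. The sample titles do not link them, and that comparison was fitted without pairs.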

Additional observations from a re-analysis of the deposited data

How the results depend on the processing

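Among all genes, the calls of KO against WT on D1 went from 1 to 0 with a pseudocount of 0.1, 14 without the filter, 2 with median-of-ratios scaling and 0 with the compared groups only. On D4 they went from 0 to 21 without the filter and 1 with scaling, on D7 from 0 to 4 and 1, and on D14 from 0 to 1 with scaling. They went from 1 to 3 with scaling in the average and from 0 to 6 without the filter in the F test. Fitting the compared groups only, which leaves fewer samples for the spread, gave 1163 in place of 3120 from WT D1 to D4 (1 in place of 6 of the 10 genes), 908 in place of 1941 from WT D4 to D7, 7940 in place of 5000 from WT D7 to D14, 52 in place of 3049 from KO D1 to D4 (0 in place of 3 of the 10) and 7 in place of 88 from KO D7 to D14. Scaling gave 2157 from WT D7 to D14, 5 of the 10 genes from KO D1 to D4, 19 in place of 0 from KO D4 to D7 and 432 from KO D7 to D14, and no filter gave 6 and 47 in these last KO steps. Without the filter, which adds genes to the adjustment, the rises of Cdkn1a (adjusted p = 0.0707, limma) and Cdkn2b (0.0628) from WT D1 to D4 and the fall of Ccnd1 from KO D1 to D4 (0.0927) were not called. The cause of the other changes was not tested.

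Directions that turned were all of differences that had not passed the test. With scaling Cdkn1b was at -0.68 for WT D1 against control, at -0.046, 0.085 and -0.028 for KO against WT on D1, D7 and D14, at 0.047 and 0.19 for the WT steps to D7 and D14 and at 0.14 and 0.079 for those in KO. Cdkn2a was at -0.033 for KO against WT on D1 and 0.037 for WT D14 against D7, Cdkn2b at 0.069 in the average (0.018 with a pseudocount of 0.1), Cdkn2c at 0.15 for KO D14 against D7, and Rb1 at -0.095 for KO against WT on D14 and 0.014 for KO D7 against D4. Gadd45a was at 0.013 for WT D14 against D7 and 0.14 for KO D7 against D4, Ccnd1 at -0.066 for KO against WT on D1, 0.054 for WT D7 against D4 and 0.018 in the average, and Ccng1 at -0.59 for WT D1 against control, 0.20 for KO against WT on D7 and -0.026 on D14.

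Leaving out each library in turn gave 5714 to 9121 calls for WT D1 against control (5 to 6 of the 10 genes), 2074 to 3551 for WT D4 against D1 (3 to 6), 210 to 1598 for WT D7 against D4 (1 to 3), 286 to 4177 for WT D14 against D7 (2 to 4), 1096 to 3980 for KO D4 against D1 (1 to 3), 0 to 1375 for KO D7 against D4 (0 to 1) and 10 to 381 for KO D14 against D7 (0 to 1). For KO against WT it gave 0 to 2 on D1, 0 to 24 on D4, 0 to 26 on D14, 1 to 3 in the average and 0 to 1 in the F test. Ranges that crossed 0 were, for KO against WT on D1, -0.013 to 0.12 for Cdkn1b, -0.15 to 0.29 for Cdkn2a, -0.34 to 0.037 for Cdkn2b and -0.34 to 0.49 for Ccnd1. On D7 they were -0.74 to 0.22 for Cdkn2a, -0.070 to 0.16 for Cdkn2b and -0.11 to 0.034 for Ccng1, on D14 -0.050 to 0.17 for Cdkn1b, -0.14 to 0.079 for Rb1 and -0.18 to 0.12 for Gadd45a, and in the average -0.054 to 0.040 for Cdkn2b, -0.045 to 0.13 for Gadd45a and -0.17 to 0.038 for Ccnd1. For KO D7 against D4 they were -0.17 to 0.067 for Cdkn1b, -0.61 to 0.39 for Cdkn1c, -0.74 to 0.36 for Cdkn2a, -0.60 to 0.092 for Rb1, -0.38 to 0.25 for Gadd45a and -0.030 to 0.26 for Ccnd1. For the other steps they were -0.64 to 0.024 for Cdkn2a in WT D14 against D7, -0.0034 to 0.12 for Cdkn2b and -0.22 to 0.038 for Cdkn2c in KO D14 against D7, -0.48 to 0.21 for Rb1 in KO D4 against D1, and -0.69 to 0.14 and -0.38 to 0.056 for Ccnd1 in WT D4 against D1 and D7 against D4. With the replicate block, 3 of the 10 genes called from KO D1 to D4 became 2, Ccnd1 being at -0.97 (adjusted p = 0.0555, limma), and no other call of the 10 changed.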

Other observations

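The ratio of Ccnd1 to Cdkn1a, a driver of G1 against an inhibitor, was lowest on D4. It was 0.273 ± 0.0436 in control muscle (SD, n = 3), 0.253 ± 0.0603 in WT D1, 0.0865 ± 0.00461 in WT D4, 0.318 ± 0.113 in WT D7 and 0.316 ± 0.0277 in WT D14, where the control value is from the other table. In KO muscle it was 0.367 ± 0.134, 0.125 ± 0.0714, 0.321 ± 0.0346 and 0.321 ± 0.105 on D1, D4, D7 and D14. The 3 WT D4 libraries were between 0.0817 and 0.0909 although their Cdkn1a spread from 210 to 420 TPM, and the KO D4 libraries were between 0.0701 and 0.206. The ratio was described after its values were seen and was not tested.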
